A study of Mus musculus with 3 samples.

Results

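The genes described here encode the SR proteins, the hnRNPs and 5 smaller families of RNA-binding proteins that decide which exons enter a messenger RNA. They were chosen by mouse gene symbol: the serine/arginine-rich splicing factors (Srsf followed by a digit), the heterogeneous nuclear ribonucleoproteins (Hnrnp), Tra2a and Tra2b, and the polypyrimidine tract (Ptbp), muscleblind (Mbnl), Celf and Rbfox families. Of 51 matching symbols, 49 had a transcript in the file, among 24225 genes in all; the pseudogenes Srsf3-ps and Hnrnpa1l2-ps had none. The 49 genes divide into 11 SR proteins, 2 TRA2 genes, 21 hnRNP genes, 3 PTBP, 3 MBNL, 6 CELF and 3 RBFOX genes, and they had 133 isoforms with RefSeq accessions, 6 of which carry a noncoding (NR) accession.

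The study sequenced mRNA from granulosa cells, the somatic cells that line the ovarian follicle and surround the oocyte, of wild-type C57BL/6 female mice aged 21 to 28 postnatal days. All mice had received 4 IU of equine chorionic gonadotropin (eCG), which drives follicle growth. The 0 h group was taken before human chorionic gonadotropin (hCG), and the 4 h and 12 h groups were taken 4 and 12 hours after 5 IU of hCG, which stands in for the ovulatory luteinizing hormone surge. Each time had 1 library with RNA from 3 mice, and cells were released by puncturing follicles, so other follicular cells can be present. There are no replicates, no test could be made, and every difference below is one between 2 libraries.

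SR proteins bind exonic enhancers through RNA recognition motifs and recruit the spliceosome through a domain rich in arginine and serine, which kinases phosphorylate. Many hnRNPs and PTBP proteins instead bind silencers and favour exon skipping, while MBNL, CELF and RBFOX proteins promote or block an exon according to where they bind. Many of these genes splice their own transcripts into a form with an early stop codon, often through a conserved "poison exon", and that form is a known target of nonsense-mediated decay.

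Exons of 5 genes whose inclusion differed by at least 20 percentage points between libraries, with the poison exons of Srsf3 and Srsf7, are shown first because isoform results below turn on them. They were read from GENCODE M21 transcripts on GRCm38, the assembly that mm10 names, from the transcript that GENCODE pairs with each RefSeq accession. The 54-nt exons of Mbnl1 (chr3:60614683-60614736, plus strand) and Mbnl2 (chr14:120395712-120395765, plus strand) lie in the coding sequence, and capitals mark the 8 positions at which they differ. The other 46 positions, 85.2%, are the same.
Mbnl1 54-nt exon: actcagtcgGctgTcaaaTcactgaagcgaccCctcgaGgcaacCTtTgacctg
Mbnl2 54-nt exon: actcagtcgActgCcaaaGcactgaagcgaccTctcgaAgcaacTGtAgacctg

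The 57-nt coding exon of Hnrnpd (chr5:99976534-99976590, minus strand), the 78-nt coding exon of Ptbp1 (chr10:79860117-79860194, plus strand) and the 34-nt coding exon of Ptbp3 (chr4:59546149-59546182, minus strand) follow whole. Of the Srsf3 exon of 456 nt (chr17:29039454-29039909, plus strand) and the Srsf7 exon of 460 nt (chr17:80204622-80205081, minus strand), the start is shown as far as a TGA stop codon in capitals, which begins at base 32 of the Srsf3 exon and base 26 of the Srsf7 exon and ends the reading frame that GENCODE annotates.
Hnrnpd 57-nt exon: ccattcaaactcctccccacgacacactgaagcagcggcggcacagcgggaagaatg
Ptbp1 78-nt exon: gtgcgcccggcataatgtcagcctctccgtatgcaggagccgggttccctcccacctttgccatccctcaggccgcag
Ptbp3 34-nt exon: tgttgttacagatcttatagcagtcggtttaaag
Srsf3 456-nt exon, start: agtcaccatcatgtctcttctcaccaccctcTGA
Srsf7 460-nt exon, start: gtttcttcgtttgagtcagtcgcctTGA

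Levels are deposited FPKM (fragments per kilobase, corrected for the number mapped), which allow for transcript length and depth, summed over a gene's isoforms. Ranges in brackets are the deposited bounds, which lie 2 deposited standard deviations from the estimate and describe that estimate within its library, not the spread between mice. The steps between low values place the depth at 13300000, 11900000 and 11600000 fragments at 0, 4 and 12 h, so that 1 fragment on a 2-kb transcript is worth 0.0418, 0.0467 and 0.0479 FPKM. The 12 granulosa cell markers were all detected and summed to 14854, 11927 and 8408 FPKM; at 4 h against 0 h, 6 were lower by 2-fold and 1 higher. Inha, the inhibin alpha subunit, was at 6986, 7163 and 3742 FPKM, and Fshr, the follicle-stimulating hormone receptor, at 133, 15.5 and 32.1. Markers of other cells were also present: 11 of the oocyte summed to 272, 213 and 375 FPKM, 9 of theca and stroma to 419, 788 and 590, 5 of smooth muscle to 114, 173 and 169, and 6 of erythroid cells to 1739, 1092 and 1111. The 8 endothelial markers summed to 17.4, 41.5 and 15.8 FPKM, 9 of leukocytes to 57.3, 91 and 93.8, and 5 of neutrophils to 1.78, 24 and 3.55.

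The splicing factors were broadly and highly expressed. Of the 49 genes, 45 reached 1 FPKM in at least 1 library and 39 were at 10 FPKM or more in all 3. Together they held 4588 FPKM at 0 h, 5578 at 4 h and 4318 at 12 h, which is 1.14%, 1.19% and 1.12% of the FPKM of protein-coding genes. The hnRNP genes made up the largest share, at 2751, 3459 and 2615 FPKM, and the SR proteins followed at 1262, 1418 and 1200.

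**Figure D1:**
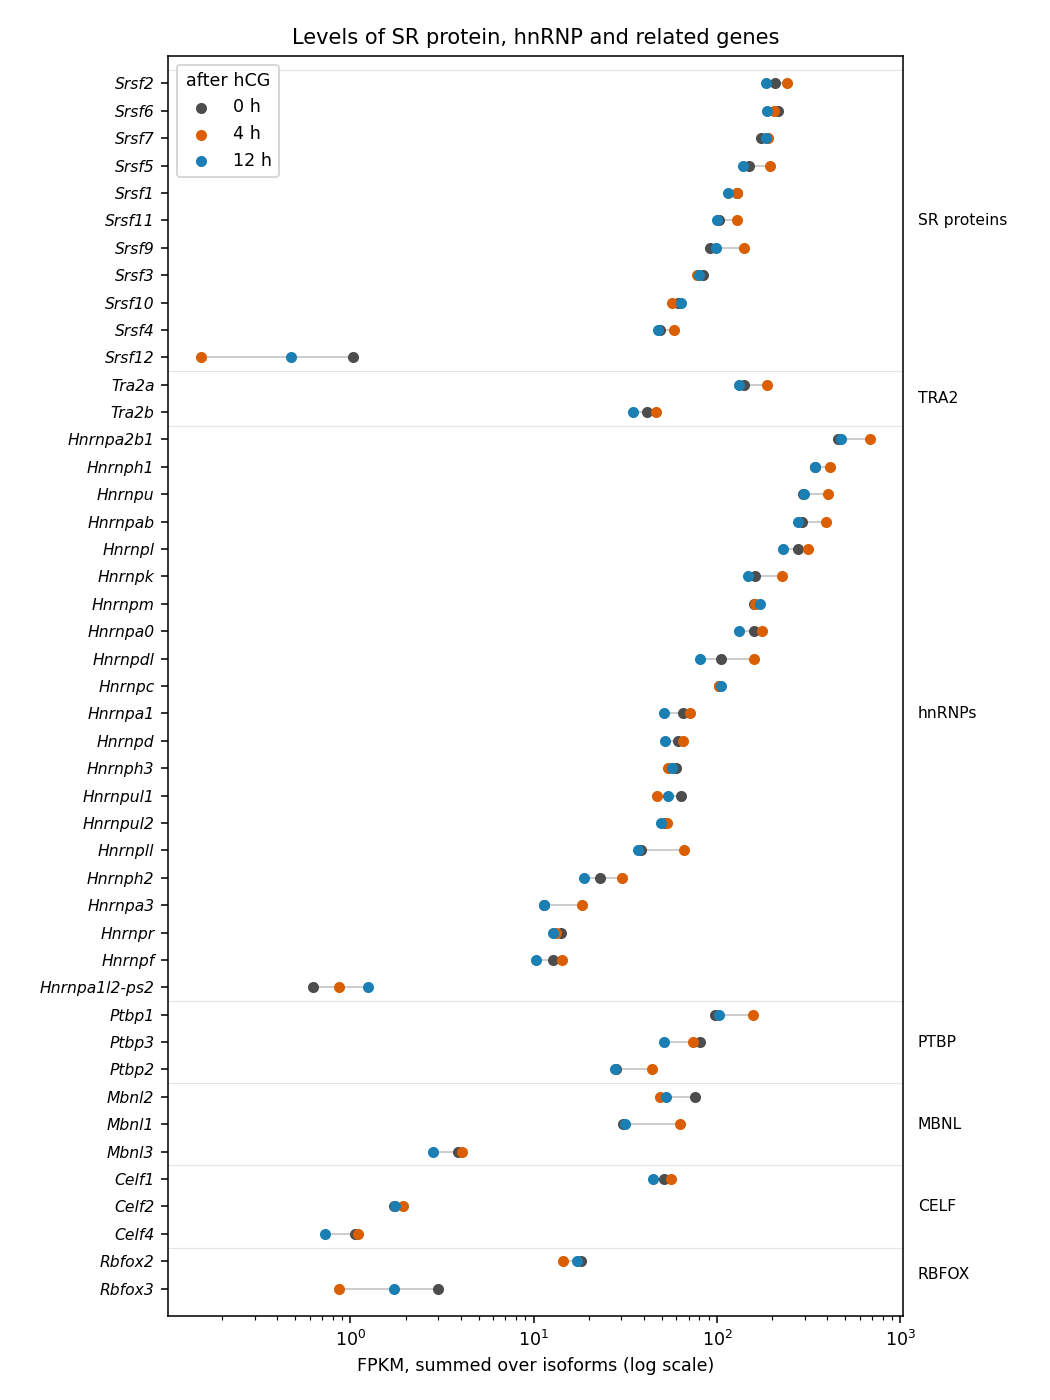
FPKM (log axis) of the 45 genes that reached 1 FPKM in any library, grouped by family; grey, orange and blue points are the single libraries at 0, 4 and 12 h, and a line joins the lowest and highest. Most genes span less than 2-fold, and 27 of the 39 genes at 10 FPKM or more in all libraries had their highest deposited value at 4 h (69.2%, beside 45.7% of all such genes), which becomes 14 when libraries are brought to the same FPKM sum (beside 19.2%).

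Fold differences are given on the log2(FPKM + 1) scale, later minus earlier, which understates those of low genes. A gene counted as higher or lower at a difference of 2-fold, if either library of the pair had 1 FPKM or more. The 3 comparisons share libraries and are not independent of each other. In bulk RNA, fewer cells of a type and less RNA per cell cannot be told apart, which applies to every level given here.

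At 4 h against 0 h, 1 of the 44 genes tested was higher by 2-fold, where 10.2% of all genes were, and 1 was lower, where 7.03% of all genes were. Mbnl1 was the gene that was higher and Rbfox3 the gene that was lower. The median log2 fold of the 44 was 0.14, beside -0.01 over all 13240 genes tested, and 32 of the 44, 72.7%, lay above 0, beside 49.5% of all genes. The median turned to -0.14 when libraries were brought to the mean of their FPKM sums and to -0.07 with protein-coding sums. Those scalings moved the median of all genes to -0.29 and -0.21, so that the median of the splicing factors stayed above it.

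At 12 h against 4 h, 0 of 44 genes was higher and 0 was lower by 2-fold, where 4.83% and 7.88% of all genes were. Mbnl1 and Hnrnpdl, both at -0.97, came nearest. The median log2 fold was -0.37, beside 0.01 over all genes, and 10 of 44 lay above 0, 22.7%, beside 50.7% of all genes. With protein-coding sums the median was -0.09 where that of all genes was 0.27, and with the sums of all FPKM it turned to 0.02 where that of all genes was 0.37.

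At 12 h against 0 h, 0 of 45 genes was higher and 0 was lower by 2-fold, where 3.16% and 2.55% of all genes were. The median log2 fold was -0.09, beside -0.02 over all genes. The lowest value was -0.64 for Ptbp3 and the highest 0.47 for the low-level entry Hnrnpa1l2-ps2.

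At the smaller threshold of 1.5-fold, the 4 h library exceeded the 0 h library in 7 genes, 15.9% of those tested beside 19.1% of all genes. They were Hnrnpa3, Hnrnpdl, Hnrnpll, Mbnl1, Ptbp1, Ptbp2 and Srsf9. Another 3, Mbnl2, Rbfox3 and Srsf12, were lower, 6.82% beside 18.7% of all genes. From 4 h to 12 h, 8 were lower, 18.2% beside 16% of all genes: Hnrnpa3, Hnrnpdl, Hnrnph2, Hnrnpk, Hnrnpll, Mbnl1, Ptbp1 and Ptbp2. Between 0 h and 12 h, Ptbp3 was the 1 gene that was lower, where 6.7% of all genes were, and 0 was higher, where 8.79% were.

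**Figure D2:**
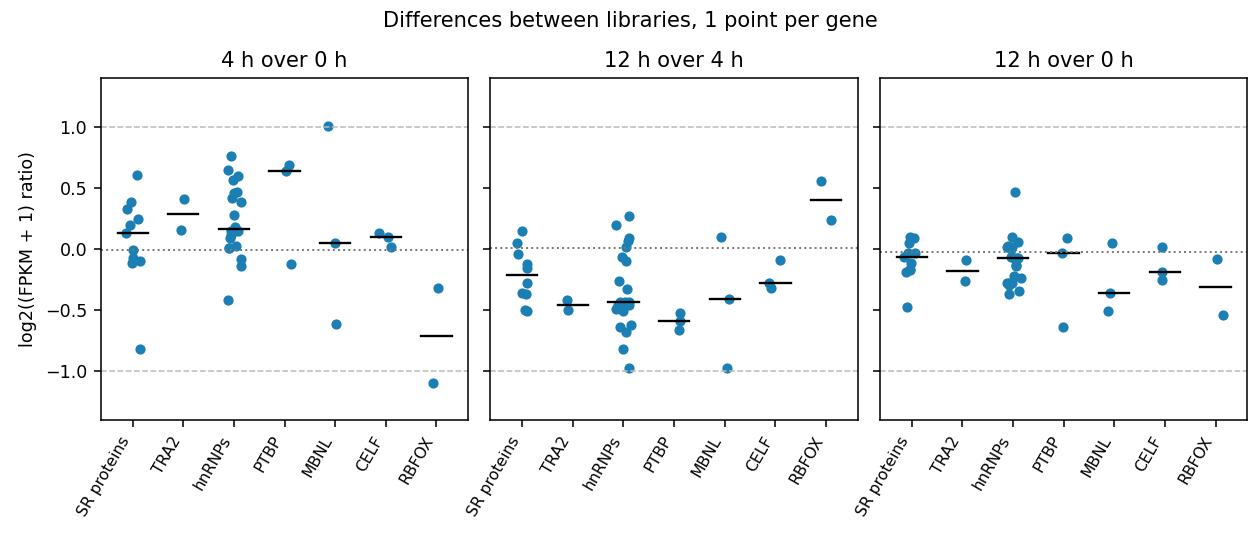
Difference between 2 libraries for each gene, as log2 of the ratio of FPKM + 1 at the deposited scale, by family; black bars are family medians, the dotted line is the median of all genes tested and dashed lines mark 2-fold. Mbnl1 (1.01) and Rbfox3 (-1.10) at 4 h over 0 h are the points past 2-fold, and the hnRNP median is 0.17 at 4 h over 0 h and -0.43 at 12 h over 4 h, which become -0.13 and -0.04 when libraries are brought to the mean of their FPKM sums and -0.05 and -0.15 with protein-coding sums.

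Deposited bounds at 4 h lay wholly above those at 0 h for 18 of 44 genes, 40.9% beside 22.1% of all genes, and wholly below for 4, 9.09% beside 17.4%. Between 4 h and 12 h, 22 of 44 genes had bounds wholly below, 50% beside 20.5% of all genes, and 0 had bounds wholly above, beside 14.1%. For 12 h over 0 h, 9 of 45 had bounds wholly below, 20% beside 8.61%, and 0 wholly above, beside 8.29%. Bounds are narrower for highly expressed genes, which most of these genes are. They were compared at the deposited scale only, and directions depended on the scale. By FPKM sums, 15 of 44 genes lay above a log2 fold of 0 and 29 below at 4 h against 0 h. The counts were 22 above and 21 below of 43 at 12 h against 4 h, and 21 above and 24 below of 45 at 12 h against 0 h.

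Among the SR proteins, Srsf2, also called SC35 and a marker of nuclear speckles, was at 208 FPKM (199 to 217), 240 (230 to 250) and 185 (176 to 193) at 0, 4 and 12 h and was the most abundant of the family at 4 h. Its bounds did not overlap between any pair of libraries, with 4 h highest as deposited but not under either sum scaling. Srsf6, another enhancer-binding SR protein, was the most abundant at 0 h and 12 h, at 215 (208 to 221), 204 (198 to 211) and 188 (181 to 194) FPKM, with 12 h below both others as deposited but above 4 h under both sum scalings. Srsf1, the founding member of the family, stood at 129, 128 and 115 FPKM, with overlapping bounds throughout.

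Srsf9, an SR protein with a short arginine- and serine-rich tail, had the largest difference of the family among its abundant members. It stood at 91.5 FPKM (83 to 99.9) at 0 h, 140 (130 to 151) at 4 h and 98.1 (85.9 to 110) at 12 h, a log2 fold of 0.61 and then -0.51. The 4 h library was apart from the other 2, which overlapped. Srsf5 (149, 195 and 138 FPKM), Srsf11 (102, 128 and 99.9) and Srsf4 (48.6, 58 and 47.7) were also highest at 4 h, with smaller differences, and each had 4 h bounds above both others at the deposited scale. By FPKM sums, 4 h remained highest for Srsf9 and Srsf5 but not for Srsf11 and Srsf4, and over the 10 SR genes at 10 FPKM or more it was highest in 6 as deposited, beside 45.7% of all genes, in 2 by FPKM sums, beside 19.2%, and in 4 by protein-coding sums, beside 25.6%.

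Srsf10, which represses splicing when dephosphorylated, was at 61.2, 56.9 and 63.4 FPKM with overlapping bounds. Srsf12, its close relative, was the lowest SR gene at 1.04 (0.521 to 1.56), 0.154 (0 to 0.393) and 0.473 (0.115 to 0.831) FPKM, about 38, 5 and 15 fragments. Its log2 fold of -0.82 at 4 h rests on those few fragments. Tra2a and Tra2b, SR-like enhancer-binding proteins, were at 141, 188 and 132 FPKM and at 41.7, 46.7 and 34.6, both highest at 4 h as deposited, whereas Tra2b was not highest at 4 h under either sum scaling.

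Among the hnRNPs, Hnrnpa2b1, which encodes the A2 and B1 proteins, was the most abundant of all 49 genes. It stood at 459 FPKM (441 to 476), 679 (653 to 706) and 477 (459 to 495), a log2 fold of 0.57 at 4 h and -0.51 from 4 to 12 h. The 4 h library was well above the other 2, which overlapped. Hnrnpu, the nuclear scaffold attachment factor, was at 293 (285 to 300), 402 (392 to 411) and 297 (289 to 305), and Hnrnph1, which binds runs of guanine, at 340, 413 and 344. Hnrnpab, a relative of Hnrnpd, was at 292, 391 and 278.

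These genes shared an order as deposited, in which 4 h was highest and 0 h and 12 h lay close together. Hnrnpa2b1, Hnrnpu and Hnrnpab stayed highest at 4 h under both sum scalings, whereas Hnrnph1 was highest at 12 h under both. By FPKM sums, 12 h lay nearer to 4 h than to 0 h in Hnrnpu (log2 folds of -0.04 against 4 h and 0.11 against 0 h). The same held narrowly for Hnrnpa2b1 (-0.12 and 0.14) but not for Hnrnpab (-0.10 and 0.02). By protein-coding sums, 12 h lay nearer to 0 h in each of these genes. The log2 folds against 4 h and 0 h were then -0.15 and 0.08 for Hnrnpu, -0.23 and 0.12 for Hnrnpa2b1, and -0.21 and -0.01 for Hnrnpab. Of 20 hnRNP genes at 10 FPKM or more, 15 were highest at 4 h as deposited, beside 45.7% of all genes, and 8 under either sum scaling, beside 19.2% and 25.6%. Other abundant members ended below their starting level. Hnrnpl, which binds CA repeats, went from 277 (267 to 287) to 314 (303 to 325) and 228 (219 to 237), where the higher 4 h level was lost under both sum scalings, and Hnrnpk, which binds runs of cytosine, from 162 (155 to 170) to 226 (217 to 235) and 147 (140 to 154). Hnrnpm showed neither pattern, at 160, 162 and 172 FPKM with overlapping bounds, and neither did Hnrnpc, a binder of uridine tracts, at 103, 103 and 105. Both were lowest at 4 h under the sum scalings, with log2 folds by FPKM sums of -0.30 and then 0.48 (Hnrnpm) or 0.41 (Hnrnpc).

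Hnrnpll, a relative of Hnrnpl known for exon choice in lymphocytes, had the largest difference of the hnRNPs at 4 h. It stood at 38.7 FPKM (35.6 to 41.7), 66.2 (62.2 to 70.2) and 37 (34 to 39.9), log2 folds of 0.76 and then -0.82. Hnrnpdl, a relative of Hnrnpd, stood at 105 (99.7 to 110), 160 (153 to 166) and 81.2 (76.5 to 85.8), log2 folds of 0.60 and then -0.97. The 3 libraries of Hnrnpdl were apart from each other, with 12 h lowest. Both genes kept these directions under the sum scalings.

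Hnrnph2 was at 23.1, 30.4 and 18.7 FPKM, a log2 fold of -0.68 from 4 to 12 h. Hnrnpa3 was at 11.4 (7.38 to 15.4), 18.3 (13.1 to 23.6) and 11.4 (9.66 to 13.1), with 0 h and 4 h overlapping. The largest difference in the other direction was that of Hnrnpul1, which is linked to the DNA damage response, at 63.2 (59.1 to 67.4), 47 (43.4 to 50.6) and 54.3 (50.4 to 58.1), a log2 fold of -0.42 at 4 h. Hnrnpa1, the classical exon silencer, was at 65.6, 71.4 and 51.6 FPKM. The remaining hnRNP genes, Hnrnpa0, Hnrnpd, Hnrnpf, Hnrnph3, Hnrnpr and Hnrnpul2, ranged from 10.3 FPKM (Hnrnpf, 12 h) to 176 (Hnrnpa0, 4 h), with log2 folds between -0.43 and 0.15 in the 3 comparisons. Processed copies of several hnRNP genes exist in the genome, and Hnrnpa1, Hnrnpa3 and Hnrnpa1l2-ps2 (0.626, 0.871 and 1.25 FPKM) are uncertain for that reason.

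Among the PTBP genes, Ptbp1, the broadly expressed repressor that binds pyrimidine tracts, and Ptbp2, its neuron-enriched paralog, were both highest at 4 h. Ptbp1 was at 96.9 (90.6 to 103), 157 (137 to 176) and 103 (93.1 to 114) FPKM, a log2 fold of 0.69 at 4 h. Ptbp2 was at 28.1 (25.7 to 30.6), 44.3 (41.2 to 47.4) and 27.6 (25.1 to 30), a log2 fold of 0.64. In both genes the 4 h bounds were above those of the other 2 libraries. They stayed highest at 4 h under both sum scalings, with log2 folds of 0.38 and 0.34 by FPKM sums.

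Ptbp3, a paralog first described in blood cells, did not follow them. It was at 80.5 (57.4 to 104), 73.8 (70.1 to 77.6) and 51.2 (48.1 to 54.3) FPKM, a log2 fold of -0.64 at 12 h against 0 h. The 12 h library was below both others, and the wide bounds at 0 h came with an uncertain split between its 2 isoforms.

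Mbnl1 and Mbnl2, zinc-finger proteins that switch fetal to adult exons in muscle and brain, differed in opposite directions at 4 h. Mbnl1 was at 30.5 FPKM (27.4 to 33.7), 62.7 (44.2 to 81.2) and 31.6 (18.9 to 44.3), a log2 fold of 1.01 at 4 h, which stayed the same in direction at 0.71 by FPKM sums and 0.79 by protein-coding sums. The bounds at 0 h and 4 h were apart, and those at 12 h touched the 4 h range. Mbnl2 was at 75.6 (68.2 to 83), 49.1 (44.9 to 53.3) and 52.6 (42.1 to 63.2), a log2 fold of -0.61 at 4 h, with 0 h above both later libraries. Mbnl3 was low, at 3.88, 4.06 and 2.81 FPKM.

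At 4 h some markers of other cell types were also higher. Beside the 10.2% of all genes that were higher by 2-fold, these were 2 of 7 endothelial markers tested (8 listed, with 0 markers listed at 0) and 2 of 6 leukocyte markers (9 listed, with Cd3e listed at 0 at 4 h and 12 h). All 3 neutrophil markers tested were higher (5 listed, with Ngp listed at 0 throughout and S100a9 and Camp at 0 h). Of the other lists, 1 of 9 theca and stroma markers (Mgp), 1 of 5 smooth muscle markers (Tagln), 1 of 4 erythroid markers (Hbb-bs) and 0 of 10 oocyte markers were higher. Of the markers in these 7 lists, 0 was lower. Their part in the levels at 4 h was not tested.

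Celf1, which binds GU-rich elements and acts against MBNL proteins on many exons, was the abundant CELF gene at 51.1 (47.9 to 54.4), 55.9 (51.1 to 60.8) and 44.7 (36 to 53.5) FPKM, all overlapping. Celf2 was at 1.74, 1.94 and 1.76 and Celf4 at 1.06, 1.1 and 0.731. Celf3 reached 0.568 FPKM at most and Celf5 0.123, and Celf6 was listed at 0 at 0 h and 4 h and at 0.0331 at 12 h.

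Rbfox2, the RBFOX gene of non-neuronal cells, was at 18.2 (13.6 to 22.9), 14.4 (6.67 to 22.2) and 17.2 (12.8 to 21.7) FPKM, with overlapping bounds. Rbfox3, which encodes the neuronal nuclear antigen NeuN, was at 2.99 (1.88 to 4.11), 0.866 (0.33 to 1.4) and 1.74 (0.798 to 2.69), about 103, 27 and 49 fragments. Its log2 fold at 4 h was -1.10, the largest of the set in size, and 0 h was apart from 4 h but not from 12 h. Rbfox1 stayed under 1 FPKM, at 0.89, 0.238 and 0.354. Of the other neuron and muscle markers, Map2 was at 4.98, 2.91 and 3.83 FPKM and Snap25 was listed at 0 at 0 h and stood at 146 and 1.56 at 4 and 12 h, so the list did not move as a group.

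Noncoding isoforms made up much of the FPKM of 4 genes: Srsf3, Srsf7, Hnrnpa1 and Hnrnpa2b1. Their NR accessions pair with GENCODE transcripts annotated as targets of nonsense-mediated decay, so these are spliced forms of the same genes and not separate noncoding genes. A stop codon in the included exon is shown above for Srsf3 and Srsf7, and the reading frames of the Hnrnpa1 and Hnrnpa2b1 forms were not examined. Shares within a gene do not depend on how libraries are scaled.

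Srsf3, the smallest SR protein and an adaptor for mRNA export, had the largest difference. Its NR isoform, which holds the 456-nt exon, was at 37.9 FPKM (33.6 to 42.1), 49.1 (42.3 to 55.8) and 40.1 (35.3 to 44.9). The coding isoform, which skips that exon, was at 45.7 (40.6 to 50.7), 28.2 (20.8 to 35.7) and 39.8 (34.3 to 45.3). The NR share was thus 45.3% at 0 h, 63.5% at 4 h and 50.2% at 12 h, while the total of both was nearly level as deposited, at 83.5, 77.3 and 79.9 FPKM. Under the sum scalings that total was lowest at 4 h. Its log2 folds were -0.41 and then 0.44 by FPKM sums, and -0.33 and then 0.33 by protein-coding sums. At 4 h the bounds of the 2 isoforms were apart from each other and from those at 0 h, for the NR isoform only just (42.3 against 42.1). For both isoforms the 4 h bounds overlapped those at 12 h. The coding isoform was lowest at 4 h under both sum scalings too, while the NR isoform was highest at 12 h by FPKM sums (40.2, 42 and 45.1).

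Srsf7, an export adaptor closely related to Srsf3, had a smaller difference in the same order. Its NR isoform with the 460-nt exon was at 75.4 (67.2 to 83.6), 97.4 (89.4 to 105) and 83.8 (76.6 to 90.9) FPKM, highest at 4 h as deposited and at 12 h under both sum scalings. The NR share was 43.3%, 51.2% and 45.1%. Among its coding isoforms, the one that skips a 36-nt exon was at 32.9 (26.3 to 39.5), 17.8 (14 to 21.7) and 25 (17.8 to 32.3) FPKM, with 4 h below 0 h.

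The hnRNP pair did not have this order. The NR share of Hnrnpa2b1 was 38.8%, 36.8% and 45.1%, with the NR isoform at 178 (167 to 190), 250 (233 to 267) and 215 (203 to 227) FPKM and the coding isoform that holds a 120-nt exon at 280 (267 to 294), 429 (409 to 449) and 262 (249 to 275). Coding and NR isoforms were both highest at 4 h as deposited, whereas the NR isoform was highest at 12 h under both sum scalings (189, 214 and 242 FPKM by FPKM sums). At 12 h, as deposited, the coding form overlapped its 0 h range while the NR form was above its own. The NR share of Hnrnpa1 was 52.1%, 54.8% and 42.2%, from 34.2 (29.5 to 38.8), 39.1 (32.9 to 45.3) and 21.7 (11 to 32.5) FPKM of NR isoform, of which 4 h and 12 h were just apart.

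Srsf9 had an NR share of only 3.05%, 1.47% and 3.11%, and its NR and coding accessions pair with a single GENCODE transcript. Celf3, the sixth gene with an NR isoform, was too low for a share to be read. Over genes with both kinds of isoform at 10 FPKM or more, the noncoding share was higher by at least 5 percentage points at 4 h in 2 of the 5 splicing factors (Srsf3 and Srsf7), beside 28% of 261 genes. From 4 to 12 h it was lower in 3 of 5 (Hnrnpa1, Srsf3 and Srsf7), beside 29.6%, and higher in Hnrnpa2b1, beside 21.9%. It was lower in 0 of 5 at 4 h against 0 h, beside 22.6%. Over the whole interval from 0 h it was lower at 12 h in Hnrnpa1, beside 29.3% of genes, and higher in Hnrnpa2b1, beside 20.8%.

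**Figure D3:**
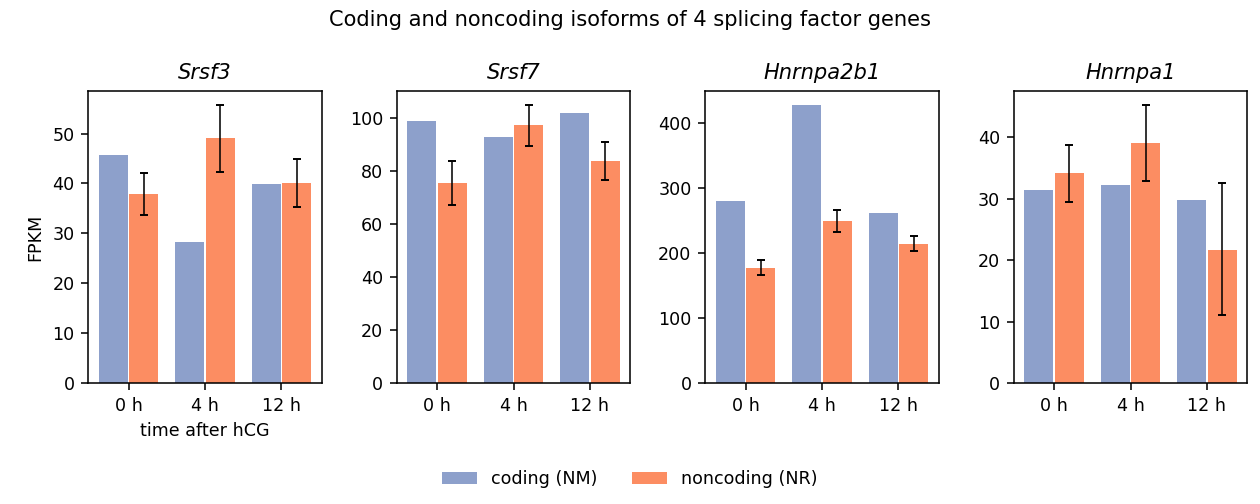
FPKM of coding (NM, blue, summed over isoforms) and noncoding (NR, orange) isoforms of 4 genes at 0, 4 and 12 h, 1 library each; error bars are the deposited bounds of the NR isoform. For Srsf3 the NR form (49.1 FPKM) exceeds the coding form (28.2) at 4 h and is close to it at 12 h (40.1 and 39.8), and for Hnrnpa2b1 both forms are highest at 4 h as deposited, while its NR form is highest at 12 h under both sum scalings.

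Shares of coding isoforms also differed within genes. Among 24 splicing factor genes with several isoforms and at least 10 FPKM in both libraries, 6 had an isoform whose share differed by 20 percentage points or more between 0 h and 4 h, 25% beside 30.9% of all such genes. The count was 5 between 4 h and 12 h, 20.8% beside 28.7%, and 4 between 0 h and 12 h, 16.7% beside 27.2%. At 10 points the counts were 10, 10 and 11 of 24, 41.7%, 41.7% and 45.8% beside 50%, 48.2% and 47.7%, and at 50 points they were 0, beside 7.02%, 6.4% and 5.14%. These shares lay near or somewhat under those of all genes, with few genes in each count, and the gaps were not tested.

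Part of these differences can be described by cassette exons, those that some isoforms include and others skip. Inclusion is the share of FPKM of isoforms with the exon among those with or without it. Of 18 such exons in splicing factor genes, 4 were included more by 20 points or more at 4 h than at 0 h, 22.2% beside 9.65% of 1005 exons of all genes, and 2 were included less, 11.1% beside 12.8%. Of the 6, 3 are in Mbnl1 and share isoforms. From 4 h to 12 h, 1 was included more, where 11% of all exons were, and 1 less, where 9.63% were. From 0 h to 12 h, 4 were included more, beside 8.07%, and 1 less, beside 8.72%. This measure was chosen after the isoform values had been seen.

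The 54-nt exon shared by MBNL genes is known to favour nuclear localisation of the protein, and in Mbnl2 it is in 1 of the 2 isoforms. The isoform with the exon was at 6.35 FPKM (1.72 to 11), 22.2 (19.3 to 25.2) and 22.2 (14.8 to 29.6), and the isoform without it at 69.3 (63.5 to 75), 26.9 (23.8 to 29.9) and 30.4 (22.8 to 37.9). Inclusion was 8.4%, 45.3% and 42.2%, so that 4 h and 12 h were alike and apart from 0 h. The lower level of Mbnl2 after hCG lay in the isoform without the exon. The isoforms with and without it are 4552 and 2390 nt long. They thus differ in more than that exon, and which part of them the difference follows was not tested.

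The matching 54-nt exon of Mbnl1, whose sequence is shown above, is in 1 of 6 isoforms. That isoform was at 0.0213 FPKM (0 to 0.113), 28.1 (20.3 to 36) and 10 (8.45 to 11.6), and inclusion was 0.0699%, 44.9% and 31.7%. The same isoform is the only 1 of the 6 that lacks a 36-nt exon (chr3:60621423-60621458, plus strand), so the values for these 2 exons mirror each other. It also has a 1049-nt exon near its start (chr3:60528756-60529804), which 1 other isoform shares, at 0, 4.62 (0 to 13.7) and 2.24 (0 to 6.7) FPKM. Inclusion of the 1049-nt exon was 0.2%, 63% and 46.4%, over the 2 isoforms with it and the 2 that skip it, not all 6. At 4 h the isoforms with it held 32.8 of the gene's 62.7 FPKM. The 5 isoforms without the 54-nt exon summed to 30.5, 34.6 and 21.5 FPKM, so most of the higher gene level at 4 h was that of the isoform with the 54-nt exon.

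Hnrnpd encodes AUF1, which binds AU-rich elements and speeds mRNA decay, and its 57-nt exon helps to define the isoforms of that protein. Isoforms with the exon summed to 37.9, 65.1 and 38.2 FPKM, and those without it to 23.4, 0.119 and 13.4. Inclusion was 61.8%, 99.8% and 74%. A second coding exon of Hnrnpd, of 147 nt, was included at 87.1%, 81.4% and 86.1%. The main isoforms with and without the 57-nt exon are 6811 and 1670 nt long. They thus differ in more than that exon, and which part of them the difference follows was not tested.

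Ptbp1 has a 78-nt exon in the linker between its RNA recognition motifs. The isoform with it was at 59.1 (54.3 to 64), 62.7 (57.4 to 68) and 48.2 (41.3 to 55.2) FPKM, with ranges that overlapped between 0 h and 4 h and a 12 h range below that at 4 h, while the main isoform without it was at 37.8 (33.7 to 41.8), 89.8 (72.7 to 107) and 55.1 (47.5 to 62.7). Inclusion was 61%, 40% and 46.6%, and the higher Ptbp1 level at 4 h was thus that of the shorter form. In Ptbp3, inclusion of a 34-nt exon was 9.84%, 8.42% and 43.3%, with the isoform that has it at 7.92 (0 to 24.2), 6.21 (4.46 to 7.97) and 22.2 (20.1 to 24.3) FPKM. That difference appeared at 12 h, between bounds that are apart at 4 h and 12 h. The isoforms with and without the exon are 3409 and 6855 nt long in Ptbp3, and the main ones 3110 and 2598 nt in Ptbp1. They thus differ in more than these exons, and which part the differences follow was not tested.

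**Figure D4:**
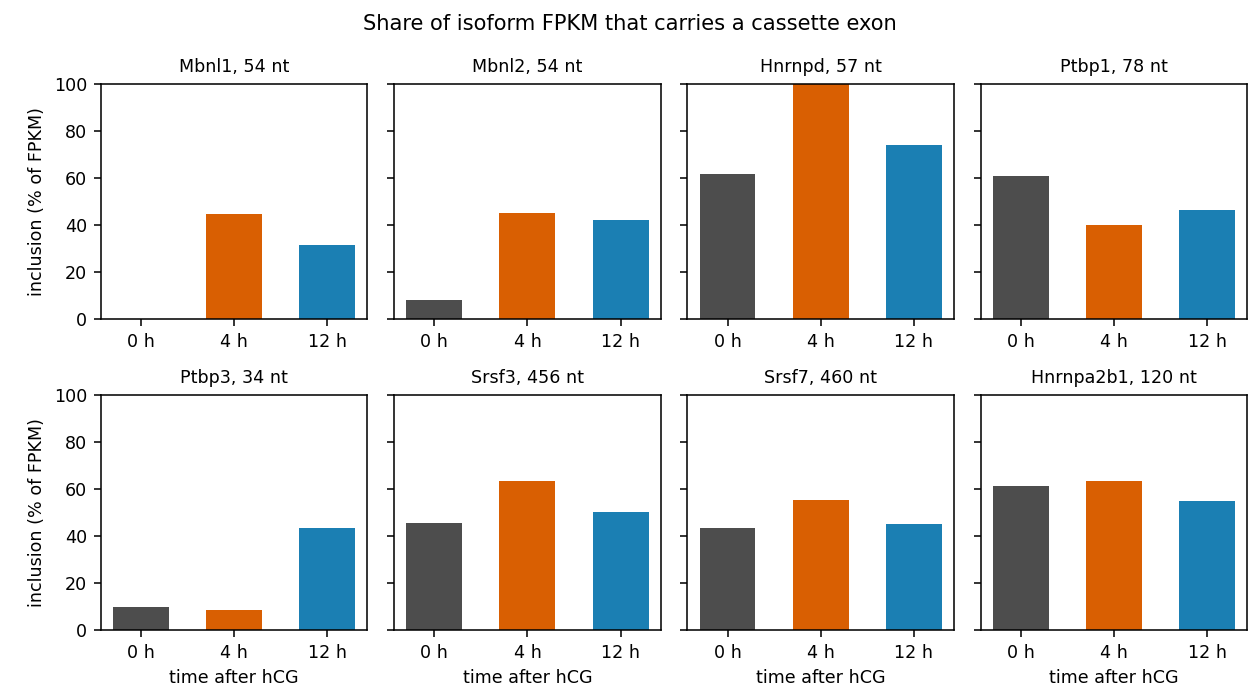
Inclusion of 8 cassette exons, as the percent of isoform FPKM that carries the exon, at 0, 4 and 12 h with 1 library each; nt is the exon's length. The 54-nt exons of Mbnl1 and Mbnl2 go from 0.0699% and 8.4% at 0 h to 44.9% and 45.3% at 4 h, the Hnrnpd exon reaches 99.8% at 4 h, and the Ptbp3 exon differs at 12 h (43.3%).

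The isoforms compared also differ in their start or end exons, so a difference between them is not a reading of the exon alone. Other share differences lay in isoforms with wide bounds in at least 1 library. In Hnrnpc, an isoform of 1691 nt was at 32.7 (28.6 to 36.8), 41.1 (19.3 to 62.8) and 3.97 (0 to 11.7) FPKM and another of 2617 nt at 28.9 (22.9 to 34.8), 16.5 (8.56 to 24.4) and 52.2 (46.3 to 58). The bounds of both Hnrnpc isoforms were apart between 0 h and 12 h. Hnrnpa3 had an isoform at 1.19 (0 to 3.75), 6.53 (2.89 to 10.2) and 0.00234 (0 to 0.0674) FPKM. Rbfox2 split its FPKM over 9 isoforms, and the largest share difference, -30.8 points at 4 h, was that of an isoform at 8.27 (4.46 to 12.1) and 2.1 (0 to 6.48) FPKM. Several members with comparable numbers of isoforms stayed level, such as Hnrnpab, whose 141-nt exon was included at 46.8%, 51.9% and 47.9%, and Srsf10, whose 2 main isoforms held 47.2% and 51.9% at 0 h and 48.9% and 50.2% at 12 h.

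Genes that act with these factors are given by list, here and in the next paragraph, at the deposited scale only. Beside them, 10.2% of all genes were higher and 7.03% lower by 2-fold at 4 h against 0 h. From 4 h to 12 h these shares were 4.83% and 7.88%, and from 0 h to 12 h 3.16% and 2.55%. The medians of all genes were -0.01, 0.01 and -0.02 in the same order. Of 11 genes for SR protein kinases, a phosphatase and nuclear import, 10 were tested and 0 was higher or lower by 2-fold in any comparison, with medians of 0.27, -0.24 and -0.04 on the log2 scale for 4 h against 0 h, 12 h against 4 h and 12 h against 0 h. The kinase Clk3 was at 34.1, 57 and 35.4 FPKM, Prpf4b at 36.2, 56 and 33.6, Dyrk1a at 16.6, 25.6 and 14.9 and Srpk1 at 36.9, 53.6 and 44.2. Srpk2 went the other way, at 17.6, 13.8 and 17.2 FPKM. Of 40 core spliceosome genes, 0 was higher or lower in any comparison, with medians of 0.02, -0.03 and 0.01. Sf3b4 of the U2 particle was at 14, 22.9 and 11.7 FPKM and Luc7l of the U1 particle at 122, 84 and 89.9.

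Of 41 other splicing regulators, 39 were tested. Esrp2, an epithelial splicing regulator, was higher at 4 h (1, 4.31 and 3.66 FPKM) and also at 12 h against 0 h, and Cirbp, the cold-inducible RNA-binding protein, was lower at 4 h (64.4, 30.5 and 43.1). Khdrbs3, a STAR-family regulator, was just short of 2-fold at 70.5, 35.7 and 38.4. Of 15 genes of nonsense-mediated decay, 0 was higher or lower in any comparison, with medians of 0.02, -0.01 and -0.11. Its central helicase Upf1 was at 25.8, 43.9 and 27.6 FPKM and Smg8 at 11.2, 18.7 and 9.85. In the other direction, Upf3a was at 41.6, 30 and 32.6 FPKM and Magohb at 34.6, 24.7 and 33.7.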

How the data were processed

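The values are isoform FPKM that the authors deposited, with a standard deviation (deposited for each value, of unstated kind) and bounds 2 of these away. Per the submitters' processing notes, CASAVA 1.8, TopHat2 2.1.1, Cufflinks 2.2.1 and mm10 were used, in roles not given there. Strandedness, read length and whether the RNA of 3 mice was pooled before library preparation are not given in the sources used here, so genes that overlap on opposite strands are uncertain.

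Of 34535 isoforms, 34169 were matched to symbols through RefSeq accessions of GRCm38.p6, 193 through GENCODE M21, and 173 had no match. FPKM were summed per gene, and gene bounds combine isoform half-widths in quadrature, as if isoforms were independent. Log2 folds used a pseudocount of 1 FPKM. Exon structures come from the GENCODE transcript paired with each accession, without versions in the file. Depth came from low-value steps: 70.8%, 70% and 71.8% of values lay within 0.1 of a whole fragment. Estimates marked as failed were 12 isoform values in all and 0 among the isoforms of the splicing factors. The fold rule and the isoform share rule were run on simulated data, which took the depth estimate as given.

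A fold of 2 is a rule of size, not a test. The genes and lists were chosen with earlier results of these data known. Genes named with values are those past 2-fold, the 10 most abundant, those with the largest folds or share differences, each family's extremes, and some of each list. Alternatives were pseudocounts, filters, 3 scalings, the main isoform alone, other folds, and other share thresholds; scalings of the count highest at 4 h, the noncoding share count and exon inclusion were added after the data were seen.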

Additional observations from a re-analysis of the deposited data

How the results depend on the processing

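No paired analysis was possible because each time has 1 library. Of the alternatives, 92 values kept the count or moved by less than the limit set for them, 34 moved and 3 reversed. At 4 h against 0 h, the count higher was 0 with a pseudocount of 5 FPKM, with either sum scaling and at 4-fold, 2 with the main isoform only and 7 at 1.5-fold; the count lower was 2 with a pseudocount of 0.1 FPKM, 0 with a pseudocount of 5 FPKM, a filter of 5 FPKM or 4-fold, and 3 at 1.5-fold. The median log2 fold at 4 h against 0 h reversed to -0.14 by FPKM sums and -0.07 by protein-coding sums, and that at 12 h against 4 h reversed to 0.02 by FPKM sums and moved to -0.09 by protein-coding sums. At 12 h against 4 h, 1 gene was higher and 1 lower with the main isoform only, and 8 were lower at 1.5-fold. At 12 h against 0 h, 2 were lower with the main isoform only and 1 at 1.5-fold. Genes with a share difference numbered 10, 10 and 11 at 10 percentage points and 0 in each comparison at 50 points, and 3 at 12 h against 4 h with a floor of 20 FPKM. Genes highest at 4 h numbered 14 by FPKM sums (19.2% of all genes) and 16 by protein-coding sums (25.6%), where the deposited scale gave 27. As a share of fragments rather than FPKM, the NR form of Hnrnpa1 was 40.7%, 43.3% and 31.5%. The causes were not tested. Depth limits genes under 1 FPKM, such as Celf3, Celf5, Celf6 and Rbfox1, which rest on few fragments.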
